A study of Mus musculus with 6 samples.

Results

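The genes described here encode C-type lectin receptors of myeloid cells that bind sugars, with the mannose receptor gene Mrc1 at their head. They are the 10 genes Mrc1, Mrc2, Cd209a, Cd209b, Cd209d, Clec10a, Mgl2, Clec7a, Clec4d and Clec4e, out of 37325 named genes on the array, and they were chosen by name, together with all 18 gene probes that carry their symbols. The study gave mice an oral nanomedicine, RG@M-γ-CD, in which the kinase inhibitor regorafenib (RG) sits inside a γ-cyclodextrin that carries mannose. Colon tissue with tumors was taken from 3 mice given RG@M-γ-CD and from 3 mice given PBS, and each of the 6 samples was read on 1 one-color Agilent array. All 6 were male C57BL/6 mice per the methods, in which tumors had been induced with AOM, a carcinogen, and DSS, which injures the colon lining, so the controls carry tumors too. The labels give no age at sampling. Treatment was by mouth in both groups. Per the methods, the mice were killed after an observation period that followed the end of treatment, so the tissue was not taken during dosing. No healthy colon and no arm with the mannose carrier alone or with free regorafenib was analysed here.

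C-type lectin receptors hold a carbohydrate recognition domain that, in the classical members, binds sugars through calcium. The mannose receptor takes up glycoproteins that end in mannose and is carried by many tissue macrophages, by some dendritic cells and by endothelial cells of lymphatic vessels and liver sinusoids. Other members recognise fungal and bacterial walls and signal through the kinase Syk. The question that the design puts to these genes is whether the transcripts of the receptors that could meet a mannose-bearing particle, and of their relatives, differed between treated and control tumors.

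Each gene was read through DNA probes of 60 bases. A level is a log2 intensity from which the same array's 75th percentile over gene probes was subtracted, so a level of 0 stands for that percentile. Brightness differs between probes for reasons other than transcript number, so levels are compared between arrays for 1 probe and never between probes. The last 30 bases of the probes behind the main results are given 5′ to 3′, because the values of Mgl2 depend on which of its probes is read and because Mrc1, Clec7a, Clec4d and Clec4e each rest on 1 probe. Capitals mark AATAAA, the letters of a polyadenylation signal.
Mrc1, mm9 chr2:14253303-14253332, plus strand: attgagaactgtatttatccacatgtagaa
Mgl2, brighter probe, mm9 chr11:69951015-69951044, plus strand: tgtcgcaacAATAAAatttgagctttaatc
Mgl2, dimmer probe, mm9 chr11:69950562-69950591, plus strand: ctgggcaaagccagctcagcccactcccca
Clec7a, mm9 chr6:129411739-129411768, minus strand: tccaaattgctggggatctgtttatagctt
Clec4d, mm9 chr6:123224818-123224847, plus strand: aattggaagccctcgaagtgatccttgatg
Clec4e, mm9 chr6:123232878-123232907, minus strand: cgcaagtagaacctgctcagtaggttcaaa
The brighter Mgl2 probe starts at base 1490 of its transcript and the dimmer one at base 1037. Exon boundaries of the mm9 build were not used here. In the RefSeq gene table Clec4d and Clec4e are direct neighbours on chromosome 6, Clec10a and Mgl2 are direct neighbours on chromosome 11, and Cd209b and Cd209d are direct neighbours on chromosome 8.

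Between 28103 and 31219 gene probes (49.6% to 55.2%) were well above background on each array. Markers of epithelium (10 of 10) and of smooth muscle (6 of 6), the main layers of the colon, were tested, which needed a probe that passed the scanner's background mark on each of the 3 arrays of either group. The same held for 14 of 17 macrophage markers, although Cd163, Folr2 and Timd4 were not measured well enough to be tested. A heat map in the study's supplement clusters RG@M-γ-CD replicates 2 and 3 with PBS replicate 1, and RG@M-γ-CD replicate 1 with PBS replicates 2 and 3, which differs from the labels of the deposited samples. The labels were followed, and values without the RG@M-γ-CD replicate 1 and PBS replicate 1 arrays are given beside the receptors and lists whose values they moved. The arrays lay on 1 slide, with all RG@M-γ-CD samples and PBS replicate 1 in its row 1 and PBS replicates 2 and 3 in its row 2.

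Of the 10 receptor genes, 7 had a probe bright enough to be tested, and none of them differed between the groups beyond the spread of the arrays. With limma, 0 of the 7 passed a Benjamini-Hochberg adjusted p of 0.05, and so did 0 (0%) of the 19090 genes tested, where the smallest adjusted p was 0.818. At an unadjusted p below 0.05 the count was 0 of 7, beside 419 of all genes (2.19%), and the t-test named in the methods gave 381 genes and 0 receptors at the same limit. The 3 samples of one group lay wholly above or below those of the other for 0 of the 7 receptors, beside 872 of all genes (4.57%). The mean was lower in RG@M-γ-CD for 5 of the 7, beside 52.8% of all genes, and the median change was -0.27 on the log2 scale, beside -0.01 for all genes. Among these 5, Clec4e passed the background filter only through its PBS arrays. With a filter on all 6 arrays Clec4e dropped out, 4 of 6 receptors were lower, and their median change was -0.24. Because whole tissue was measured, fewer cells of a type and less RNA per cell cannot be told apart in any of these values.

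**Figure D1:**
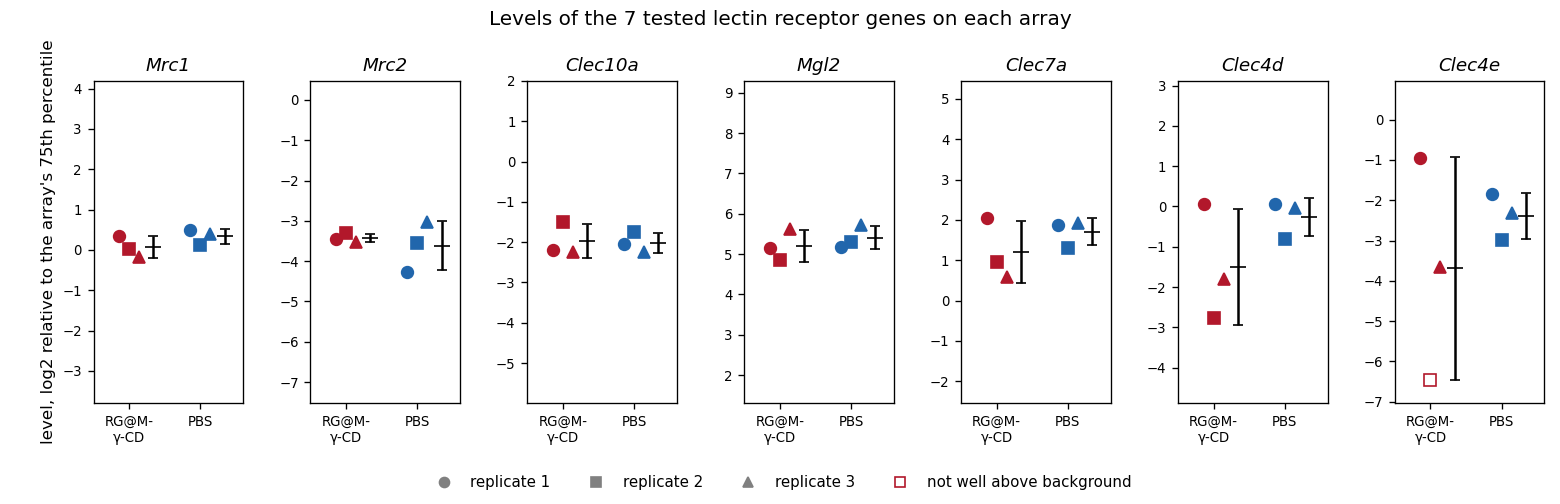
Level of each tested receptor gene on each array, in log2 relative to the array's 75th percentile, with red for RG@M-γ-CD and blue for PBS, a shape for each replicate and black bars for the mean and SD of 3 arrays. Every panel spans the same number of log2 units; the groups overlap in all 7, and the spread is widest for Clec4e, from -6.46 to -0.94 among the RG@M-γ-CD arrays.

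Mrc1, the macrophage mannose receptor CD206, was well above background on all 6 arrays. Its level was 0.36, 0.02 and -0.19 in RG@M-γ-CD replicates 1, 2 and 3 and 0.48, 0.13 and 0.39 in PBS replicates 1, 2 and 3. RG@M-γ-CD replicates 2 and 3 were the lowest of the 6 arrays, while RG@M-γ-CD replicate 1 lay within the PBS range. The change was -0.27 (SE 0.20, 95% interval -0.75 to 0.21, limma adjusted p = 1), so a mean 1.21-fold lower in RG@M-γ-CD was measured and the interval holds 0. It kept its sign under all 18 alternatives run, between -0.42 and -0.14, although several of these could not alter its value. Mrc2, known as Endo180, is a collagen uptake receptor of fibroblasts and other stromal cells. Its level was -3.45, -3.31 and -3.52 in RG@M-γ-CD and -4.26, -3.55 and -3.04 in PBS. The RG@M-γ-CD arrays lay close together, inside the range of the PBS arrays, and the change was 0.19 (SE 0.31, 95% interval -0.57 to 0.94). The other two Mrc2 probes stayed at background throughout.

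The Cd209 genes are mouse relatives of human DC-SIGN, a receptor of dendritic cells and macrophages for mannose and fucose. None of their 6 probes was well above background on all 3 arrays of a group, so none was tested. The brighter Cd209a probe passed on PBS replicate 2 alone, at a level of -3.78. On the other arrays its level was -5.81, -4.16 and -5.40 in RG@M-γ-CD and -4.47 and -4.91 in PBS replicates 1 and 3, values that mark only an upper bound. Both probes of Cd209b and both of Cd209d were not well above background on any of the 6 arrays. A Cd209d probe gave -4.96, -4.92 and -5.36 in RG@M-γ-CD and -4.75, -4.27 and -4.70 in PBS, so its groups did not overlap, but no level above background was measured in either and no fold is given.

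Clec10a and Mgl2 encode the mouse macrophage galactose lectins, which bind galactose and N-acetylgalactosamine and are carried by macrophages and conventional dendritic cells. Clec10a stood at -2.18, -1.50 and -2.24 in RG@M-γ-CD and at -2.04, -1.76 and -2.25 in PBS. Its group ranges nearly coincide, and the change was 0.04 (SE 0.26, 95% interval -0.58 to 0.66). The second Clec10a probe stayed at background throughout. Mgl2 has a pair of probes that were both well above background on all 6 arrays, so it has 2 readings. Whether both report the Mgl2 transcript was not tested. The brighter probe, printed 10 times on each array with a coefficient of variation between spots of 0.931% to 6.49%, gave 5.14, 4.85 and 5.61 in RG@M-γ-CD and 5.18, 5.31 and 5.72 in PBS. The dimmer probe gave -3.03, -3.60 and -3.92 in RG@M-γ-CD and -3.31, -2.85 and -3.07 in PBS. The probes differ in the order of the arrays: RG@M-γ-CD replicate 3 was second highest by the brighter probe and lowest by the dimmer one. The change was -0.21 (SE 0.26) by the brighter probe, which stood for the gene, and -0.44 (SE 0.27, limma adjusted p = 1 over 28291 probes) by the dimmer one in a fit of every probe on its own that was chosen after seeing the data.

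Clec7a, Clec4d and Clec4e encode Dectin-1, Dectin-3 (MCL) and Mincle, activating receptors that signal through Syk and the adapter Card9. Dectin-1 binds β-glucan of fungal walls, and MCL and Mincle bind glycolipids of mycobacteria and fungi. They held the largest measured differences among the receptors, each with RG@M-γ-CD replicate 1 as the highest of the 6 arrays. For Clec4d that array was nearly level with PBS replicate 1, at 0.0706 against 0.0672. Clec7a had levels of 2.06, 0.96 and 0.58 in RG@M-γ-CD and 1.89, 1.32 and 1.92 in PBS. RG@M-γ-CD replicates 2 and 3 lay below all PBS arrays and replicate 1 above all of them, and the change was -0.51 (SE 0.40, 95% interval -1.48 to 0.46, limma adjusted p = 1). The second Clec7a probe was well above background on 1 RG@M-γ-CD and 2 PBS arrays and gave a difference of -0.47 in the means.

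Clec4d had levels of 0.07, -2.77 and -1.80 in RG@M-γ-CD and 0.07, -0.80 and -0.05 in PBS. The highest and lowest arrays, 7.16-fold apart, were thus both from the RG@M-γ-CD group, and the change was -1.24 (SE 0.70, 95% interval -2.93 to 0.45, limma adjusted p = 1). Clec4e had levels of -0.94, -6.46 and -3.66 in RG@M-γ-CD and -1.85, -2.99 and -2.31 in PBS. RG@M-γ-CD replicate 2 was not well above background, with a scanner intensity of 4.41 beside 280 in replicate 1 and 32.3 in replicate 3, so only 2 of the 3 arrays of that group measured the gene. Its change was -1.31 (SE 1.29, 95% interval -4.41 to 1.79). With RG@M-γ-CD replicate 2 left out, Clec4e had a change of 0.08, of the other sign, and Clec4d one of -0.60. Clec4d and Clec4e had the same order of the 6 arrays, which was RG@M-γ-CD replicate 1, PBS replicates 1, 3 and 2, then RG@M-γ-CD replicates 3 and 2. The top of that order was nearly a tie between replicate 1 of both groups for Clec4d.

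The size of these differences depended on the RG@M-γ-CD replicate 1 array. Without it, they were larger: -0.42 (SE 0.19) for Mrc1, -0.94 (SE 0.26) for Clec7a and -2.02 (SE 0.39) for Clec4d, with -2.68 (SE 0.82) for Clec4e, where 1 of the 2 remaining RG@M-γ-CD arrays was not well above background. All 4 genes then had groups that did not overlap, with RG@M-γ-CD the lower. That outcome was fixed in advance, since RG@M-γ-CD replicates 2 and 3 already lay below every PBS array for these 4. The p-values of that fit share this limit, because the array left out was the one that did not lie below all PBS arrays. In that fit the groups did not overlap for 25.9% of 19466 genes, and 202 genes (1.04%) passed the adjusted threshold, of which 0 were receptors. The smallest adjusted p among the receptors was 0.0907, for Clec4d, and those of Clec7a, Clec4e and Mrc1 were 0.197, 0.239 and 0.475. At an unadjusted p below 0.05 there were 3 receptors with limma, Clec4d (0.00228), Clec7a (0.0117) and Clec4e (0.0179, with the same dim array), beside 12.5% of all genes in that fit. With PBS replicate 1 left out as well, the changes were -0.34, -0.85, -1.86 and -2.41 for Mrc1, Clec7a, Clec4d and Clec4e, again with no overlap between the remaining arrays of the groups and with the dim array in Clec4e, beside 49.3% of 19575 genes with none. No receptor passed the adjusted threshold there either, and neither did any other gene (0%). At an unadjusted p below 0.05 with limma were Clec4d (0.00893) and Clec7a (0.0348), beside 12.3% of all genes there.

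**Figure D2:**
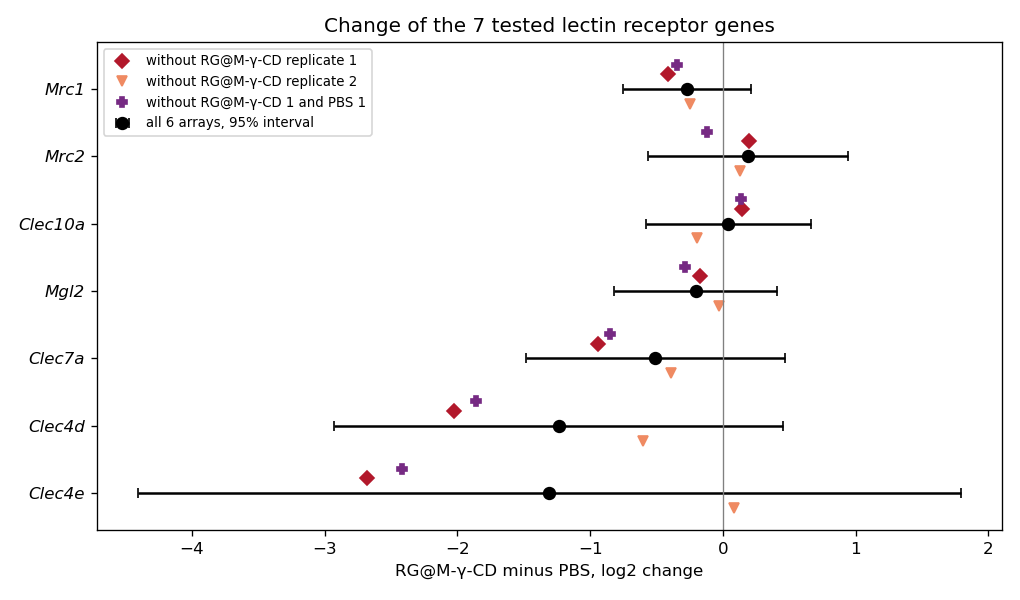
Log2 change, RG@M-γ-CD minus PBS, of each tested receptor gene with its 95% interval over 6 arrays (black), and the change after leaving out replicate 1 (red) or 2 (orange) of RG@M-γ-CD or replicate 1 of both groups (purple). All 7 intervals hold 0; leaving out replicate 1 or replicate 2 of RG@M-γ-CD puts Clec4e at -2.68 or 0.08.

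The 250 bases before the transcription start of Clec4d, Clec4e and Clec7a are given because these genes had RG@M-γ-CD replicate 1 at the top and replicates 2 and 3 at the bottom of their array order. They come from RefSeq on the GRCm38.p6 build, read 5′ to 3′ toward the start, and capitals mark the core GAGGAA, or TTCCTC on the other strand, of PU.1, a transcription factor of the myeloid lineage.
Clec4d, GRCm38.p6 chr6:123261857-123262106, plus strand: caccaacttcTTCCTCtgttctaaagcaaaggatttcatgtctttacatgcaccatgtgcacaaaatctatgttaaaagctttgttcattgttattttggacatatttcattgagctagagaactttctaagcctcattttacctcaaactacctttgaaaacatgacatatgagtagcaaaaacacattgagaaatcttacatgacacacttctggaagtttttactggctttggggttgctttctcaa
Clec4e, GRCm38.p6 chr6:123289872-123290121, minus strand: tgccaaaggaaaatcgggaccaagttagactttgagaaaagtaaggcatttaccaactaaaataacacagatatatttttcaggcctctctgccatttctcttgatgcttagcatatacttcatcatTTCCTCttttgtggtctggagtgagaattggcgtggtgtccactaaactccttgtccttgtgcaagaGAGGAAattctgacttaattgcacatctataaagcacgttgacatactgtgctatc
Clec7a, GRCm38.p6 chr6:129472780-129473029, minus strand: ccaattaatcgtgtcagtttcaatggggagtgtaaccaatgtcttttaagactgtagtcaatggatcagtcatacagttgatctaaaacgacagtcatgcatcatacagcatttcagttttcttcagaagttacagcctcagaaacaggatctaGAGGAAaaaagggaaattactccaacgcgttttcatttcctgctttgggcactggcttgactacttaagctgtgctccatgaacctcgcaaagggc
Upstream sequences were found for 8 of the 10 receptors, all but Mrc2 and Clec10a. The PU.1 core is in 6 of the 8, against 23.3% of all 32851 promoters of the same length, and sits 56 and 123 bases before the start of Clec4e, 96 bases before that of Clec7a and 240 bases before that of Clec4d, counted to its first base. On both strands, TTNNGCAA for C/EBP factors is in 2 of the 8, Cd209b and Clec4e (9.56% of all promoters), and the STAT6 motif, TTC and GAA with any 4 letters between, is in 1, Clec7a (5.85%). GGGNNTTCC for NF-kB is in 1, Mrc1 (4.98%), and TGANTCA for AP-1 is in 0 (6.75%). No match overlaps another in the 3 sequences shown. A match says only that these letters stand in the window.

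Macrophage markers varied over the arrays together with Mrc1 and Clec7a, and also with Clec4d and Clec4e. Pearson r of their mean over the 6 arrays was 0.951, 0.976, 0.918 and 0.801 with these genes in that order. It was from -0.311 to 0.024 with Mrc2, Clec10a and Mgl2. The mean level of 14 macrophage markers was 1.46, 0.74 and 0.58 in RG@M-γ-CD and 1.42, 1.19 and 1.36 in PBS, so RG@M-γ-CD replicates 2 and 3 were lowest here too, and 12 of the 14 had a lower mean in RG@M-γ-CD, with a median change of -0.44 (-0.73 without replicate 1 of both groups). Among them, Cd14 had a change of -0.41 and Lyz2 one of -0.82. The list was not uniform: Maf and Mertk had a higher mean in RG@M-γ-CD, with changes of 0.37 and 0.35. Groups did not overlap for 3 of the 14, with 2 lower and 1 higher (Maf) in RG@M-γ-CD, beside 4.57% of all genes. Their summed linear level ran from 74.5 to 183 in RG@M-γ-CD and from 157.6 to 178 in PBS. After subtracting the mean of the macrophage markers on the same array, the range over the 6 arrays shrank from 0.67 to 0.38 for Mrc1 and from 1.48 to 0.60 for Clec7a. The group difference was then 0.12 for Mrc1, with -0.72 and -0.77 in RG@M-γ-CD replicates 2 and 3 now above -1.10 in replicate 1, and -0.12 for Clec7a (two-sided exact permutation p = 0.4 and 0.7, adjusted p = 0.817 for both over the 7 receptors; 3 against 3 arrays cannot give a p below 0.1). For the other genes it was 0.58 for Mrc2, 0.43 for Clec10a, 0.19 for Mgl2, -0.85 for Clec4d and -0.92 for Clec4e, with exact p from 0.3 to 0.9. The range shrank from 2.84 to 2.16 for Clec4d and from 5.52 to 4.81 for Clec4e. It grew from 1.22 to 1.62 for Mrc2, from 0.76 to 1.41 for Clec10a and from 0.87 to 1.35 for Mgl2. Mgl2 stands here on its brighter probe. The dimmer one, lowest on RG@M-γ-CD replicates 2 and 3 like the markers, was not set against them.

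**Figure D3:**
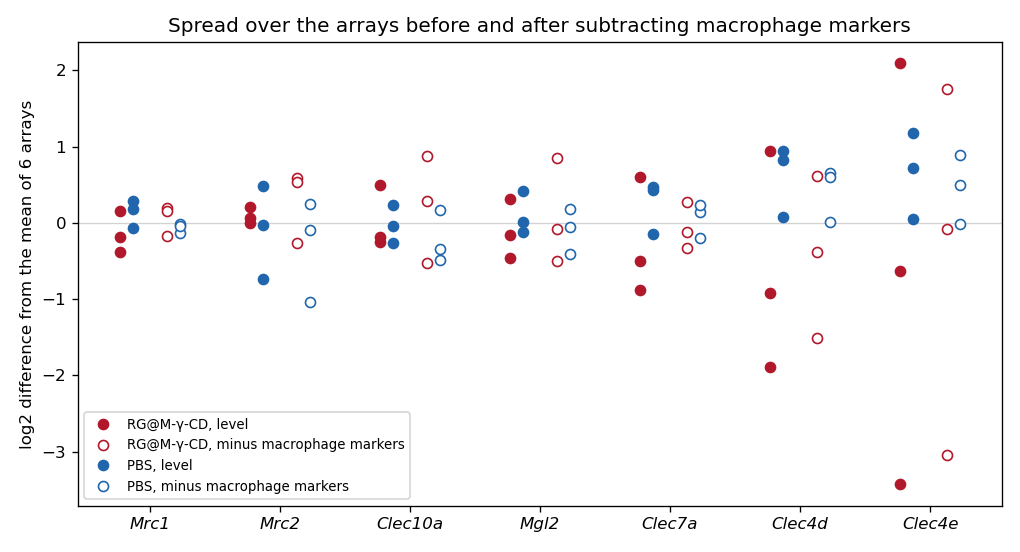
Log2 difference of each array from the mean of the 6 arrays for each tested receptor gene, as its level (filled) and after subtracting the mean of 14 macrophage markers on the same array (open), with red for RG@M-γ-CD and blue for PBS. The points of Mrc1 and Clec7a draw together, to ranges of 0.38 and 0.60. Those of Clec4d and Clec4e go from ranges of 2.84 and 5.52 to 2.16 and 4.81.

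Neutrophil markers varied over the arrays together with Clec4d and Clec4e, which neutrophils also express, and with Clec7a and Mrc1. Pearson r of their mean was 0.989, 0.931, 0.929 and 0.873 with these genes in that order. It was from -0.597 to 0.291 with Mrc2, Clec10a and Mgl2. The same genes thus went with both the macrophage and the neutrophil list. Mrc1 minus the neutrophil mean was not computed. The mean of 11 neutrophil markers was 0.55, -1.70 and -1.22 in RG@M-γ-CD and 0.27, -0.37 and 0.40 in PBS, lower by mean in RG@M-γ-CD for 9 of the 11, with a median change of -0.83 (-1.25 without replicate 1 of both groups). On RG@M-γ-CD replicates 2 and 3 only 8 and 9 of the 11 were well above background. Some of the markers, such as Cxcr2, were thus tested through PBS alone. With a background filter on all 6 arrays the median change was again -0.83. The list was not uniform: Ltf had a change of -1.52, and Camp, well above background on 2 of 3 PBS arrays, one of 0.54. Cxcr2 was above background, at -2.86, in RG@M-γ-CD replicate 1 but not in replicates 2 and 3, against -2.78, -3.81 and -3.28 in PBS. The defining marker Ly6g was at 1.85, 0.75 and 1.38 in RG@M-γ-CD and 1.51, 1.70 and 2.35 in PBS, and Ngp was not tested. Relative to the neutrophil mean, a comparison added after the values were seen, the range of Clec4d over the arrays was 0.87 instead of 2.84 and its group difference -0.35. The range of Clec7a was 1.15 instead of 1.48, and its group difference turned to 0.38. The range of Clec4e was 3.27 instead of 5.52, with RG@M-γ-CD replicate 2 still the lowest at -4.76.

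Smooth muscle markers, and fibroblast markers by their mean, varied in the opposite sense. The mean of 6 smooth muscle markers was 3.07, 5.78 and 6.14 in RG@M-γ-CD and 4.24, 3.86 and 4.18 in PBS, and their summed linear level ran from 97.6 in RG@M-γ-CD replicate 1 to 636 and 769 in replicates 2 and 3, against 188 to 220 in PBS. All 6 had a higher mean in RG@M-γ-CD, with a median change of 0.90 (1.94 without replicate 1 of both groups), Actg2 at 0.98, Myh11 at 1.05 and Acta2 at 0.85. The 2 arrays with the lowest Mrc1, Clec7a, Clec4d and Clec4e had the most smooth muscle signal, and the array with the highest Clec7a, Clec4d and Clec4e had the least. The mean of 10 fibroblast markers followed the same order at the ends, with 2.03 in RG@M-γ-CD replicate 1, 2.46 to 2.61 in PBS and up to 3.05 in RG@M-γ-CD replicates 2 and 3. That list was not uniform, with 7 markers higher and 3 lower by mean in RG@M-γ-CD. Lum and Postn had changes of 0.87 and 0.46. Pdgfra had one of -0.26, and its lowest array was RG@M-γ-CD replicate 2, at 0.47. The part of these marker shifts in the receptor differences was not tested.

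**Figure D4:**
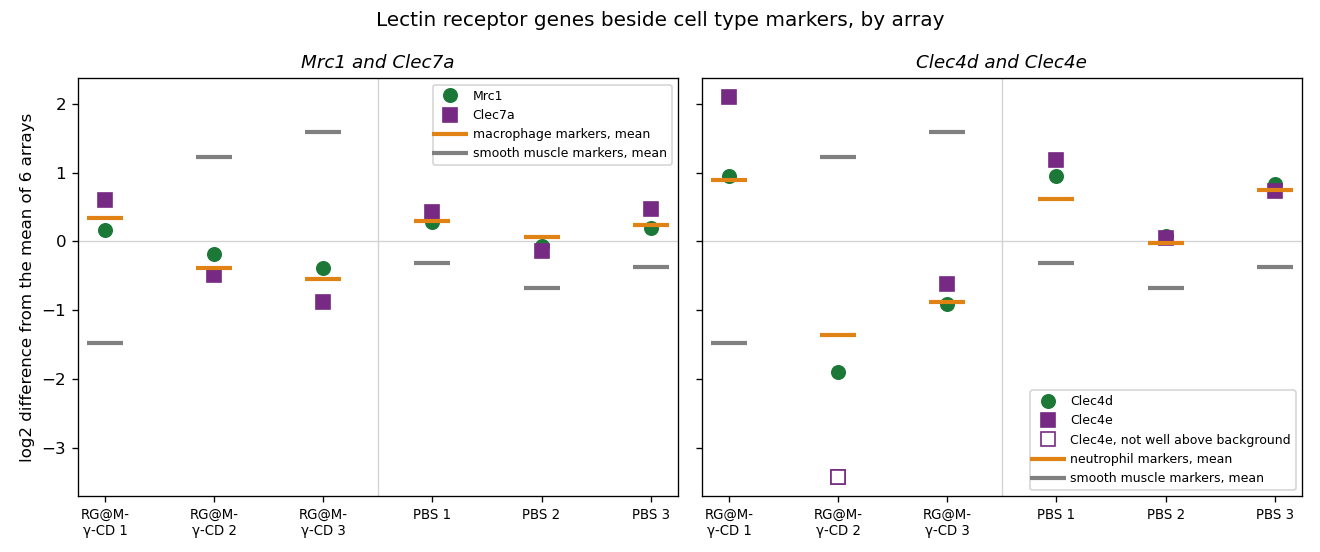
Log2 difference of each array from the mean of the 6 arrays, for Mrc1 and Clec7a beside the means of macrophage and smooth muscle markers (left) and for Clec4d and Clec4e beside those of neutrophil and smooth muscle markers (right). RG@M-γ-CD replicates 2 and 3 lie low for all 4 genes and high for smooth muscle, while RG@M-γ-CD replicate 1 lies the other way.

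Dendritic cells carry several of these receptors, and 8 of 10 of their markers were tested, with 7 lower by mean in RG@M-γ-CD and a median change of -0.31 (-0.20 without replicate 1 of both groups). The smallest unadjusted p were those of Ccr7 at -1.47, Flt3 at -0.68 and Itgax at -0.68. Ccr7 and Flt3 had groups that did not overlap, beside 4.57% of all genes, and 0 of the 8 passed the adjusted threshold. The mean of the 8 markers was 0.57, 0.43 and 0.19 in RG@M-γ-CD and 1.13, 0.86 and 0.57 in PBS. Clec10a did not share that order, since its highest array was RG@M-γ-CD replicate 2. Lymphatic endothelium, which carries the mannose receptor, had 5 of 6 markers tested, 3 of them lower by mean, and a median change of -0.27 whose sign depended on single arrays. It was 0.54 without RG@M-γ-CD replicate 1, 0.27 without PBS replicate 1 and 0.99 without both.

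The signaling partners of the activating receptors showed small differences. Of 15 genes for adapters, kinases and NF-kB subunits, 14 were tested (Card9 was not), 8 had a lower and 6 a higher mean in RG@M-γ-CD, the median change was -0.04 (-0.12 without replicate 1 of both groups) and 0 had an unadjusted p below 0.05. The 3 with the smallest p were Fcer1g, the adapter chain that Mincle needs, at -0.54 (SE 0.37), Plcg2, a phospholipase downstream of Syk, at -0.36 and Rela, a subunit of NF-kB, at -0.22. Fcer1g stood at 2.21, 1.003 and 0.96 in RG@M-γ-CD and 2.23, 1.69 and 1.86 in PBS, again with replicates 2 and 3 lowest. Syk itself stood at 2.17, 2.17 and 2.42 in RG@M-γ-CD and 2.20, 2.34 and 2.36 in PBS, a change of -0.05 (SE 0.15).

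Cytokines and chemokines that these receptors can induce were lower by mean in RG@M-γ-CD for 7 of 9 tested genes, with a median change of -0.81 (-1.16 without replicate 1 of both groups) and 0 past the adjusted threshold. The median was -0.55 with a background filter on all 6 arrays, which leaves out Cxcl2, tested through PBS alone. Il23a, a subunit of IL-23, stood at -1.84, -2.96 and -3.12 in RG@M-γ-CD and -0.997, -1.83 and -1.94 in PBS, a change of -1.05 (SE 0.42, limma unadjusted p = 0.0421, adjusted p = 1). The neutrophil chemokine Cxcl1 had a change of -0.83 (SE 0.47). Its relative Cxcl2 was at -2.47 and -3.67 in RG@M-γ-CD replicates 1 and 3, did not clear background in replicate 2, and stood at -1.52, -3.23 and -2.30 in PBS. The list was not uniform: Il6 and Ccl3 had a higher mean in RG@M-γ-CD, with changes of 0.88 (SE 0.61) and 0.28 (SE 0.34). Il10, Il12b, Csf2, Csf3 and Nlrp3 were not tested.

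Mrc1, Clec10a, Mgl2 and Clec7a are known to be induced by interleukin-4 in macrophages, and 13 of 14 other genes of that program or of its signaling were tested. Of these, 9 had a lower mean in RG@M-γ-CD, with a median change of -0.61 (-0.66 without replicate 1 of both groups). The median was -0.44 with a background filter on all 6 arrays, which leaves out Pdcd1lg2 and any other gene tested through PBS alone. The chemokine Ccl17 and the feedback inhibitor Socs1 had changes of -0.90 (SE 0.31) and -0.83 (SE 0.29), each with no overlap between the groups (4.57% of all genes), unadjusted p of 0.0259 and 0.0265 and adjusted p = 1 with limma. Pdcd1lg2, which encodes the checkpoint ligand PD-L2, was above background, at -3.95, in RG@M-γ-CD replicate 1 but not in replicates 2 and 3, against -3.38, -3.56 and -3.57 in PBS. Ccl17 stood at -0.87, -1.44 and -1.92 in RG@M-γ-CD and -0.56, -0.81 and -0.17 in PBS, so unlike Mrc1 and Clec7a it was below every PBS array in RG@M-γ-CD replicate 1 too.

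Among 32 other C-type lectin genes 17 were tested, 12 of them with a lower mean in RG@M-γ-CD, and the median change was -0.07 (-0.10 without replicate 1 of both groups). The groups did not overlap for 3 of the 17, each lower in RG@M-γ-CD, beside 4.57% of all genes. Among these 3, Olr1 was tested through its PBS arrays alone, so its lower mean follows in part from the filter. Olr1, a scavenger receptor for oxidised LDL that is a direct neighbour of Clec7a, was above background, at -4.06, in RG@M-γ-CD replicate 1 but not in replicates 2 and 3, against -3.20, -3.73 and -3.34 in PBS. Cd209g, a further mouse relative of DC-SIGN, stood at -0.26, -0.57 and -0.26 in RG@M-γ-CD and -0.14, 0.40 and 0.59 in PBS, a change of -0.65 (SE 0.23, unadjusted p = 0.0298 and adjusted p = 1 with limma). Of the Cd209 genes on these lists it alone was bright enough to be tested. The inhibitory receptor family gene Clec4a1 had a change of -0.35 (SE 0.17).

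As a description of pattern over the 6 arrays, which share their tissue makeup, the 5 tested genes most like Mrc1 were Fcgr1 (Pearson r = 0.994), Ampd2 (0.989), AW112010 (0.988), Cmtm3 (0.987) and Sh3bp2 (0.976). Fcgr1, a high-affinity IgG receptor of macrophages, stood at -2.17, -3.15 and -3.70 in RG@M-γ-CD and -1.91, -2.67 and -2.02 in PBS, the same order of the 6 arrays as Mrc1. The 5 most like Clec4e were E130308A19Rik (0.997), Ier5 (0.996), Pitpnc1 (0.996), Sbk1 (0.996) and Rnf43 (0.995), whose own changes ran from -0.35 to -0.09. None of these 5 is on the marker lists used. Their r values include RG@M-γ-CD replicate 2, where Clec4e was not well above background.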

How the data were processed

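Total RNA of colon tissue with tumors was labelled with Cy3 and hybridized to 6 one-color Agilent arrays, 1 per mouse per the study's methods. The authors deposited the output of Agilent Feature Extraction 10.7.1.1 (submitters' processing notes and methods), with spot intensities that its software corrected for background and detrended but did not scale between arrays. A further deposited table holds the authors' log2 values, normalized in a way not given in the sources used here. The headers name the mm9 build. Groups follow the sample labels.

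The scanner output was processed in R (version 4.3.3) with the package data.table (version 1.17.8). Outlier spots (790) were left out, log2 values averaged over the spots of a probe, and each array's 75th percentile over gene probes subtracted. Symbols came through accessions from the RefSeq gene list (GRCm38.p6) for 58.3% of probes, otherwise from the array design. A probe counted as well above background where the scanner software marked a share of 0.5 or more of its spots as such. A gene was tested if a probe of it did so on each array of either group, and the brightest of these stood for it. A gene that passed in 1 group alone is thus likely to have the higher mean in that group. The test was limma 3.58.1 (lmFit, then eBayes), adjusted by Benjamini-Hochberg over 19090 genes, with a threshold of 0.05. The fit was tested on simulated data. Members minus macrophage markers were compared by an exact permutation test. The precision is set by the 3 arrays per group, and none of the gene spots was saturated.

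The receptor genes and all lists were chosen with earlier results of these data known. Syk, Ly6g, Fcgr1, Maf, Mertk, Il6 and Ccl3 were described further after their values were seen. Named by rule are all receptor genes and, of each list, the 3 genes with the smallest unadjusted p if none passed the threshold. For Mrc1 and Clec4e the rule adds the 5 genes with the highest Pearson r. An item that this rule names is not reported here. Lists of epithelium, housekeeping, B cell and T cell genes were summarised as well. Their median changes were -0.07, -0.05, -0.53 and -0.53. The B cell value was 0.38 without PBS replicate 1 and 0.63 without replicate 1 of both groups. With the slide row as a block, which leaves PBS replicate 1 as the only control compared, it was -2.37. The T cell value was -0.80 without RG@M-γ-CD replicate 1. Same-numbered samples were not paired, since their deviations from the group means correlated at -0.25, -0.23 and 0.14.

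Alternatives were quantile normalization, the authors' table, normexp (offset 50), no background filter or one over all 6 arrays, averaging probes, keeping outlier spots, the replicate number or the slide row as a block, the methods' t-test, the grouping of the heat map, both replicate 1 arrays left out, and each array left out in turn. Fits of single probes and members minus neutrophil markers were added after seeing the data.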

Additional observations from a re-analysis of the deposited data

How the results depend on the processing

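No receptor gene passed the adjusted threshold under any alternative run, and Mrc1, Clec7a and Clec4d kept their negative sign under all 18 alternatives. Several of these, such as the t-test, the replicate number as a block and the background filters, could not alter the change of these genes. With the replicate number as a block, 0 genes were called, the changes were the same and the unadjusted p of Clec4d was 0.0461, and this changed no other call; the numbers do not pair the samples. The methods' t-test with their threshold of fold and p gave 45 genes (33 lower) and 0 receptors, and 0 genes after Benjamini-Hochberg adjustment. With all 6 arrays regrouped as in the heat map (RG@M-γ-CD replicates 2 and 3 and PBS replicate 1 minus the rest), 5 genes were called and Mrc2 turned to -0.35, and its value minus macrophage markers to -0.0253; without both replicate 1 arrays Mrc2 was -0.12. With normexp background Clec10a was -0.0083 and Clec4e minus macrophage markers 0.0787, and the change of Clec4e was -0.25. The slide row as a block sets the RG@M-γ-CD arrays against PBS replicate 1 alone, since row 2 held only PBS arrays. It moved the median of all genes from -0.01 to 0.10, turned Mgl2 to 0.0167 and put Mrc2 at 0.83. With the heat map grouping the medians of the B cell and lymphatic endothelium lists turned to 1.39 and 1.09. Clec4e has no value with the filter on all 6 arrays. Leaving out 1 array in turn gave 0 to 202 genes called, the highest without RG@M-γ-CD replicate 1. Over these the change ran from -0.13 to 0.48 for Mrc2, from -0.20 to 0.18 for Clec10a and from -2.68 to 0.0805 for Clec4e, and minus macrophage markers from -2.12 to 0.38 for Clec4e, from -0.19 to 0.38 for Mgl2 and from -0.38 to 0.0199 for Clec7a. The cause of these turns was not tested. The signal limits Clec4e on RG@M-γ-CD replicate 2 and the genes Cd209a, Cd209b and Cd209d.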
